A study of Bos taurus with 39 samples.

Results

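Bovine oocytes that matured for 6 h under gap junction block were compared with oocytes that matured for the same time without their cumulus cells. The comparison rests on 6 of the 39 small RNA libraries of the series, which were chosen by their labels: 3 libraries labelled CBX and 3 labelled denuded, both at 6 h. CBX is carbenoxolone, a derivative of glycyrrhetinic acid that closes gap junctions, and it was given to intact cumulus-oocyte complexes whose cumulus cells were removed after culture. Denuded oocytes were stripped by vortexing in hyaluronidase before culture, received no CBX, and lost their zona pellucida in pronase afterwards. All oocytes came from abattoir ovaries, matured in a serum-free medium with epidermal growth factor, and were pooled over 2 repeats for a library, so a library is a pool and not an animal. CBX exposure, the presence of cumulus cells during culture and the handling of the oocyte differed together between the 2 groups, and their effects cannot be told apart here.

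Cumulus cells reach the oocyte through transzonal projections that end in gap junctions, channels of connexins through which small molecules pass between both cells. Closing these channels cuts the direct route but leaves the cumulus cells in place, whereas denuding removes the cells with everything they secrete or take up. A miRNA is a short RNA whose seed, bases 2 to 8 counted from its 5′ end, guides the silencing of messenger RNAs. Small RNA libraries also catch fragments of other RNAs, above all of transfer RNAs (tRNAs), which are cleaved in many cells and which prediction software can list as candidate miRNAs.

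The known miRNAs bear their miRBase names with the prefix bta. The predicted miRNAs bear the running number that the prediction software gave them, so predicted miR-485 has nothing to do with the known miRNA of that number. Of 965 predicted rows, 957 held a count in the 39 libraries, and 364 of these shared all their counts with another row. Such rows were counted once, which left 734 distinct predicted miRNAs and, with 498 known ones, 1232 miRNAs in all.

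The sequences of 5 called predicted miRNAs are shown first, with that of predicted miR-559, which was not called. Predicted miR-485 and miR-484 share a long run of bases, as do predicted miR-318-0 and miR-559. The other pairs share runs of at most 5 bases. The capitals mark the seed.
predicted miR-485: gGGGAUGUagcucagugg
predicted miR-484: gGGGGUGUagcucagugg
predicted miR-457: uCCCCGGCaccuccacca
predicted miR-824: gUCAGGAUggccgaguggucuaagg
predicted miR-318-0: gCGCGCCCccgccgcgcg
predicted miR-559: gGCGCGCCcccgccgcgc

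Predicted miR-484 and predicted miR-485 had the same length of 18 bases and differed by 1 substitution, G5A, with positions counted from the 5′ end and the base of predicted miR-484 first. The difference lies within the seed, so their seeds differ. As background, their letters are those at the 5′ end of alanine tRNAs, those of predicted miR-824 are those at the 5′ end of a leucine tRNA, and predicted miR-457 reads like the 3′ end of an alanine tRNA including the CCA tail that is added after transcription. No tRNA reference was matched here. Bases 1 to 7 of predicted miR-484 could pair with bases 8 to 14 of predicted miR-457 over all 7 positions, 6 of them Watson-Crick pairs and 1 a G-U pair. In predicted miR-485 the changed base left 6 pairs in that stretch. Predicted miR-318-0 consisted of G and C alone (100% GC), and 17 of its 18 bases, from the first, recurred in predicted miR-559 shifted by 1 base. Among the 18 predicted miRNAs whose sequence the study lists there were 18 distinct seeds.

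The 6 libraries held between 51434 and 157271 counts of distinct miRNAs, against 10709 to 157271 over all 39 libraries (median, 63405). Replicate 1 of both groups was the deepest, with 131802 counts in CBX and 157271 in denuded oocytes. The other CBX libraries held 52724 and 53110 counts, and the other denuded libraries 51434 and 70004. In CPM, which are counts scaled to an equal library total, 3 counts corresponded to between 19.1 and 58.3. In the 6 libraries 1055 distinct miRNAs had a count and 608 had one in every library. Replicates of a group differed by more than counting error, with a chi-square per degree of freedom of 4.85 to 14.3.

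One library stood apart in 2 miRNAs of the blood and immune list. Denuded replicate 2 held 2984 CPM of bta-miR-223, a miRNA of neutrophils and other myeloid cells, and 10 counts of bta-miR-142-5p, which is found across blood cells. The other 5 libraries held 0 to 3 counts of bta-miR-223 (0 to 54.4 CPM) and 0 to 2 of bta-miR-142-5p. Other members of the list were not raised in that library. There bta-miR-146a, at 1213 CPM, was the lowest of the 6 libraries, and bta-miR-150 (385 CPM), bta-miR-146b (1348 CPM) and bta-miR-155 (616 CPM) lay within the range of the other libraries. The red cell miRNAs bta-miR-451 and bta-miR-144 were at 0 or 1 count in every library, also in denuded replicate 2. The part of this library in the results was not tested beyond the fits without replicate 2 given below.

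Of the 353 miRNAs with enough counts for the test, 7 (1.98%) had an adjusted p below 0.05 and a fold change of at least 2, that is a log2 fold change of 1 or more in size. All 7 were lower in denuded than in CBX oocytes, and none was higher (0%). They were the predicted miR-485, miR-484, miR-457, miR-824, miR-318-0 and miR-319, and 1 known miRNA, bta-miR-155. The test was the quasi-likelihood test of edgeR with the replicate number as a block, taken to stand for the ovary pool that the study fitted as a batch, and with Benjamini-Hochberg adjustment over all 353. A fit without the replicate block gave 0 calls and 8 miRNAs at an unadjusted p below 0.05, while log2 fold changes stayed of like size (−1.38 for predicted miR-485 and −1.51 for predicted miR-824). With the block, the fit left 2 residual degrees of freedom and gave an infinite prior degree of freedom. Each miRNA was thus given the quasi-likelihood dispersion of the trend at its level, and its own spread had no weight. The biological coefficient of variation, from the common negative binomial dispersion, was 0.208. Without the block the prior degrees of freedom were 4.77.

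**Figure D1:**
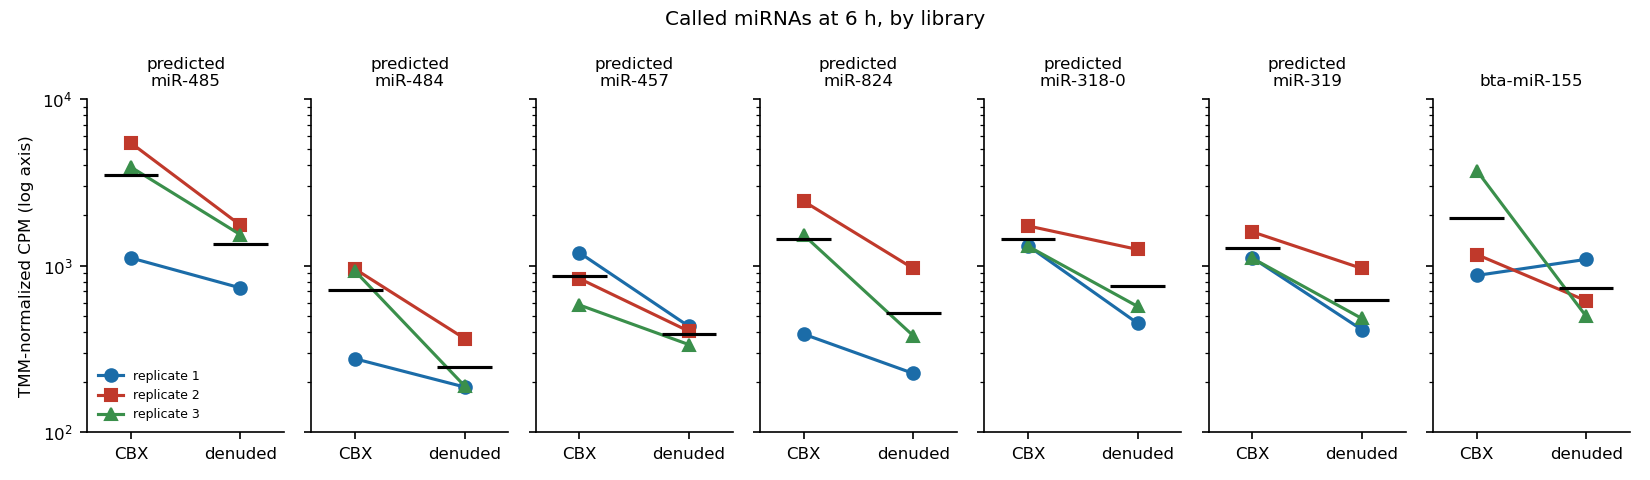
TMM-normalized CPM (log axis) of the 7 called miRNAs in each CBX and denuded library at 6 h. Points are libraries, lines join libraries of the same replicate number, and black bars are group means (n = 3). Every line falls from CBX to denuded except that of replicate 1 for bta-miR-155.

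Of the 2 predicted miRNAs with letters of an alanine tRNA 5′ end, predicted miR-485 was the more abundant. It stood at 1113, 5444 and 3902 CPM in CBX replicates 1 to 3 and at 736, 1752 and 1535 CPM in denuded replicates 1 to 3. The denuded library was lower in each pair, but the groups overlapped because CBX replicate 1 lay below denuded replicates 2 and 3. The fold change was 2.29 lower in denuded oocytes (log2 fold change −1.20, SE 0.25; edgeR adjusted p = 9.53e-04).

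Predicted miR-484, which differs from it by that 1 base, was deposited as 3 rows with equal counts. It stood at 276, 953 and 925 CPM in CBX and at 187, 366 and 190 CPM in denuded oocytes. It was lower in every pair, and again only CBX replicate 1 fell into the range of the denuded libraries. Its log2 fold change was −1.36 (SE 0.34; edgeR adjusted p = 0.00994). The counts behind it were low, between 13 and 51 per library.

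Predicted miR-457, with the letters of an alanine tRNA 3′ end, stood at 1195, 836 and 581 CPM in CBX and at 432, 404 and 336 CPM in denuded oocytes. All 3 denuded libraries lay below all 3 CBX libraries. Groups without overlap and with denuded lower were seen for 9 of the 353 miRNAs (2.55%). Its log2 fold change was −1.15 (SE 0.32; edgeR adjusted p = 0.0154). The denuded libraries differed little among themselves (391 ± 49.5 CPM, SD, n = 3) against 870 ± 308 CPM (SD, n = 3) in CBX.

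Predicted miR-824, with the letters of a leucine tRNA 5′ end, had the largest fold among the 353 in the downward direction. It stood at 388, 2430 and 1524 CPM in CBX and at 226, 963 and 380 CPM in denuded oocytes. Each pair fell, and the spread between the pairs was larger than the fall within the pair of replicate 1. The fold was 2.58 lower in denuded oocytes (log2 fold change −1.37, SE 0.30; edgeR adjusted p = 9.95e-04).

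The 3 predicted miRNAs with letters of tRNA 5′ ends shared an order of replicates. Predicted miR-485, predicted miR-484 and predicted miR-824 were each lowest in replicate 1 and highest in replicate 2 in the CBX group, and highest in replicate 2 in the denuded group as well. For predicted miR-484, CBX replicates 2 and 3 were close (953 and 925 CPM). The order was not particular to these miRNAs. Predicted miR-746, miR-765, miR-672 and miR-432 had it too, and of those, predicted miR-672 and miR-432 had positive log2 fold changes. Its share among all miRNAs tested was not counted. Predicted miR-457 had another order, with replicate 1 the highest in both groups.

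Predicted miR-318-0 and predicted miR-319 had nearly the same values. Predicted miR-318-0 stood at 1314, 1730 and 1307 CPM in CBX and at 452, 1251 and 570 CPM in denuded oocytes. Predicted miR-319 stood at 1113, 1594 and 1107 CPM in CBX and at 413, 963 and 482 CPM in denuded oocytes. For both, no denuded library reached the lowest CBX library, and denuded replicate 2 came nearest. On the log2 scale predicted miR-318-0 changed by −1.07 (SE 0.28; edgeR adjusted p = 0.0123). Predicted miR-319 changed by −1.12 (SE 0.29; edgeR adjusted p = 0.0107). Over the 36 cultured libraries their log2 levels had a Pearson correlation of 0.996, as a description without a test, and the counting may have split the same reads between them. They may therefore be 1 measurement and not 2.

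The single known miRNA called was bta-miR-155, which is known for its role in activated immune cells. It stood at 874, 1167 and 3720 CPM in CBX and at 1091, 616 and 496.96 CPM in denuded oocytes. CBX replicate 3 was more than 3 times as high as any other of these libraries, and in the pair of replicate 1 the denuded library was the higher one. The log2 fold change was −1.10 (SE 0.30; edgeR adjusted p = 0.0130), and without replicate 3 it was −0.22 (edgeR adjusted p = 0.995). The call was also lost with library totals alone (edgeR adjusted p = 0.153), with the robust option (0.886) and with known miRNAs tested on their own (0.953).

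Tested singly, with the 3 libraries of each group exchanged in all ways, the 7 called miRNAs had two-sided exact permutation p-values of 0.1 to 0.3 on their CPM, where 0.1 is the smallest that 3 against 3 libraries can give. These permutations did not keep the pairs by replicate number, which the main fit has as a block. Leaving out a pair kept some calls and ended others. Without replicate 1, predicted miR-485, miR-484, miR-824 and bta-miR-155 were still called. Without replicate 2, the pair with the high bta-miR-223, predicted miR-484, miR-824, miR-318-0 and miR-319 were still called. Without replicate 3, predicted miR-485 alone was still called. Predicted miR-457 was not called in any of the 3 fits (edgeR adjusted p = 0.497, 0.0693 and 0.0721 without replicates 1, 2 and 3). All 7 stayed below zero in each of these fits.

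**Figure D2:**
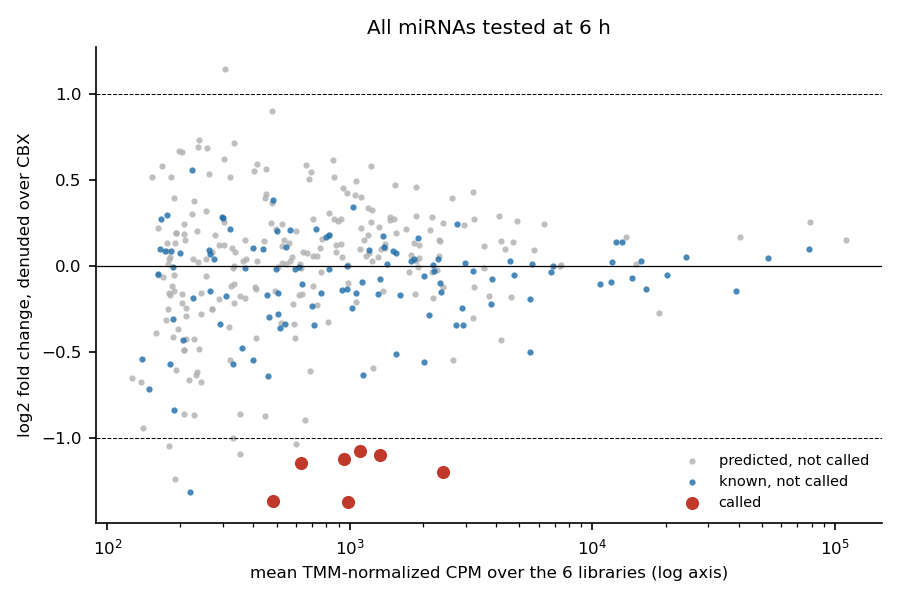
Log2 fold change of denuded over CBX oocytes at 6 h against the mean TMM-normalized CPM of the 6 libraries (log axis), 1 point for each of the 353 miRNAs tested. Dashed lines mark log2 fold changes of −1 and 1. The 7 called miRNAs lie below −1 at middle levels, and the most abundant miRNAs lie near 0.

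Most miRNAs lay near no change. The median log2 fold change was 0.03, and 289 of 353 (81.9%) had an absolute log2 fold change below 0.5. At an unadjusted p below 0.05 there were 26 miRNAs (7.37%), of which 22 were lower and 4 higher in denuded oocytes. Of the 13 whose log2 fold change was 1 or more in size, 12 were lower and 1 higher. By overlap alone there were 15 miRNAs (4.25%) whose denuded libraries all lay above the CBX libraries, against 9 (2.55%) that lay below. If libraries were exchangeable, 3 against 3 would separate in one direction or the other with a chance of 0.1. These counts are therefore not read as a direction. In all 3 pairs 46 miRNAs were lower and 41 higher in denuded oocytes.

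Next below the threshold came predicted miR-746. It stood at 403, 1264 and 798 CPM in CBX and at 349, 578 and 190 CPM in denuded oocytes (log2 fold change −1.03, SE 0.32; edgeR adjusted p = 0.0587). It was lower in every pair. Predicted miR-765 (−1.09), bta-miR-11976 (−1.31), predicted miR-383 (−0.90) and predicted miR-64 (−0.998) followed on the log2 scale, with edgeR adjusted p-values of 0.173, 0.173, 0.173 and 0.259.

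Among the miRNAs with higher values in denuded oocytes, predicted miR-79 and predicted miR-672 are shown because one had no overlap and the other the largest fold.
predicted miR-79: uGCAAGAUuuuaagcaugaccuu
predicted miR-672: gACCGAAGuggggaaagg

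Predicted miR-79 was measured at 784, 1303 and 889 CPM in CBX and at 1452, 1559 and 1315 CPM in denuded oocytes. All denuded libraries lay above all CBX libraries, but the log2 fold change of 0.58 (SE 0.28) had an edgeR adjusted p of 0.528. Predicted miR-672 had the largest upward value, a log2 fold change of 1.15 (SE 0.42; edgeR adjusted p = 0.187). It stood at 67.2, 311 and 181 CPM in CBX and at 271, 905 and 102 CPM in denuded oocytes. Its highest value was in denuded replicate 2, and in the pair of replicate 3 the denuded library was lower. Predicted miR-432 had the same shape, with 119, 467 and 308 CPM in CBX against 361, 1502 and 102 CPM in denuded oocytes (log2 fold change 0.90; edgeR adjusted p = 0.277). Predicted miR-155, unrelated to bta-miR-155, and predicted miR-716 had log2 fold changes of 0.62 and 0.59 and were higher in all 3 pairs, without passing the test.

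None of the most abundant miRNAs was called. Predicted miR-212, the highest of all, stood at 104339, 126822 and 86416 CPM in CBX and at 116103, 106530 and 127223 CPM in denuded oocytes. Its log2 fold change was 0.15, with a 95% interval of −0.16 to 0.46. Predicted miR-787 was the abundant miRNA with the clearest shift, at 68765, 76350 and 70011 CPM in CBX and 86004, 78656 and 92932 CPM in denuded oocytes. Its groups did not overlap, but the 95% interval of its log2 fold change was −0.06 to 0.57. The most abundant known miRNA was bta-miR-16b, a member of the miR-15/16 family that targets cell cycle genes, with 64808 to 85381 CPM in CBX and 77309 to 84235 CPM in denuded oocytes. Its log2 fold change had a 95% interval of −0.22 to 0.41. For bta-miR-10b the interval was −0.28 to 0.37, and for bta-miR-148a it was −0.48 to 0.19, so that fold changes of 2 lay outside the intervals of all these miRNAs.

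The miRNA bta-miR-21-5p, which is abundant in granulosa and cumulus cells and acts against apoptosis, was the one the study followed as a labelled mimic. It stood at 6302, 3480 and 3847 CPM in CBX and at 5093, 5236 and 3450 CPM in denuded oocytes. The groups overlapped throughout. Its log2 fold change was 0.03, with a 95% interval of −0.40 to 0.46.

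**Figure D3:**
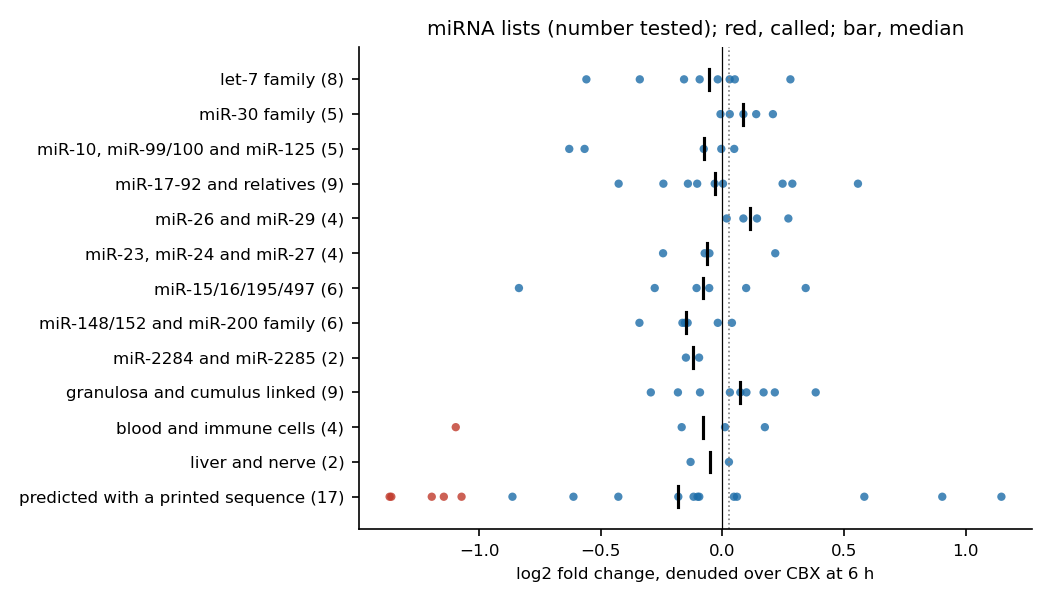
Log2 fold change of denuded over CBX oocytes at 6 h for the tested members of each miRNA list, with the number tested in parentheses. Points are miRNAs (red, called), black bars are list medians, and the dotted line is the median of all 353. The medians of the lists lie between −0.18 and 0.11, and the called members belong to the list of predicted miRNAs with a listed sequence and, for bta-miR-155, to the blood and immune list.

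The families of known miRNAs had no called member. With 7 of 353 called in all (1.98%), and 1 of 112 known miRNAs, a count of 0 in lists this short is near that share and is no result about the families. In the let-7 family, whose members rise with differentiation, 0 of 8 tested members were called and the median log2 fold change was −0.06, against 0.03 over all 353. Its extreme member was bta-let-7b, at 1254, 1419 and 5117 CPM in CBX and 1762, 1136 and 1389 CPM in denuded oocytes. CBX replicate 3 was again the high library, as for bta-miR-155. The miR-17-92 cluster and its relatives, which favour proliferation, had 0 of 9 called (median −0.03). The group of miR-15, miR-16, miR-195 and miR-497 had 0 of 6 called (median −0.08). The group of miR-10, miR-99, miR-100 and miR-125 had 0 of 5 called (median −0.08), with bta-miR-125a at the extreme (log2 fold change −0.63; edgeR adjusted p = 0.452). The miR-30 family, with 0 of 5 called, had a median of 0.09. The group of miR-148, miR-152 and the miR-200 family, with 0 of 6 called, had a median of −0.15. The lists of miR-26 and miR-29 (median 0.11) and of miR-23, miR-24 and miR-27 (median −0.06) had 0 of 4 called each. Of the miR-2284 and miR-2285 families, which are expanded in cattle, 34 members had a count and 2 were tested, neither of them called (median −0.12).

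Lists of miRNAs linked to other cell types were read as a check of the oocyte label, since no messenger RNA was measured. Of 18 rows linked to granulosa and cumulus cells, 16 had a count, 9 were tested and 0 were called (median 0.07). Their summed level was 8632 to 13127 CPM in CBX and 9837 to 11657 CPM in denuded oocytes, so the ranges overlapped. The CBX oocytes had cumulus cells around them until the end of culture but were stripped before lysis. The sum cannot tell RNA of remaining cumulus cells from that of the oocyte. In bulk libraries, fewer cells of a type and less RNA per cell cannot be told apart. Of 10 rows of the blood and immune list, 9 had a count, 4 were tested and 1, bta-miR-155, was called. The summed level of this list was 4316 to 6896 CPM in CBX and 3362 to 6738 CPM in denuded oocytes. Muscle miRNAs amounted to 77.8 to 234 CPM and 0 were tested. Of the liver and nerve list, bta-miR-124a and bta-miR-124b were at 0 or 1 count. However, bta-miR-122, the main miRNA of liver, held 971 to 1615 counts in every library (9013 to 22339 CPM). It ranked 10 by level among the miRNAs tested. The neural cell miRNA bta-miR-9-5p held 447 to 1985 counts. Neither was called. The liver and nerve list summed to 23648 to 35114 CPM in CBX and 23263 to 30417 CPM in denuded oocytes. Both ranges lay above those of the granulosa and cumulus list. A list of tissues outside the sample was thus not low, so the lists cannot settle the oocyte label. The source of these miRNAs was not tested.

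Of the 18 predicted miRNAs with a listed sequence, 17 were tested and 5 were called, all lower in denuded oocytes, with a list median of −0.18. Over all miRNAs tested 7 of 353 (1.98%) were called, and over the predicted ones 6 of 241. The study chose that list on these samples, so it is not independent evidence of the direction.

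The share of counts on predicted miRNAs as a whole did not separate the groups. It was 55.3%, 54.3% and 48.4% in CBX and 54.6%, 55.6% and 54.6% in denuded oocytes. The difference of 2.27 percentage points had a two-sided exact permutation p of 0.4. The 10 most abundant miRNAs took 46.6% to 50.6% of the counts of a library (two-sided exact permutation p = 0.3).

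The 2 other groups at 6 h place the called miRNAs on a wider scale. Control complexes were matured whole, and co-culture oocytes were stripped but matured together with whole complexes, without touching them. All 4 groups were put on the scale of the 36 cultured libraries, so values differ slightly from those above. Control replicate 1 was the shallowest library at 6 h, with 18545 counts, and 3 counts there corresponded to 162 CPM. In a fit on the 12 libraries at 6 h, denuded over CBX gave 0 calls of 381 miRNAs tested (0%) and 12 at an unadjusted p below 0.05, with a smallest adjusted p of 0.265 for predicted miR-824. Each other pair of groups compared there, namely CBX or denuded against control or co-culture, also gave 0 calls (0%), and 7 to 39 miRNAs at an unadjusted p below 0.05. These comparisons share libraries with each other.

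**Figure D4:**
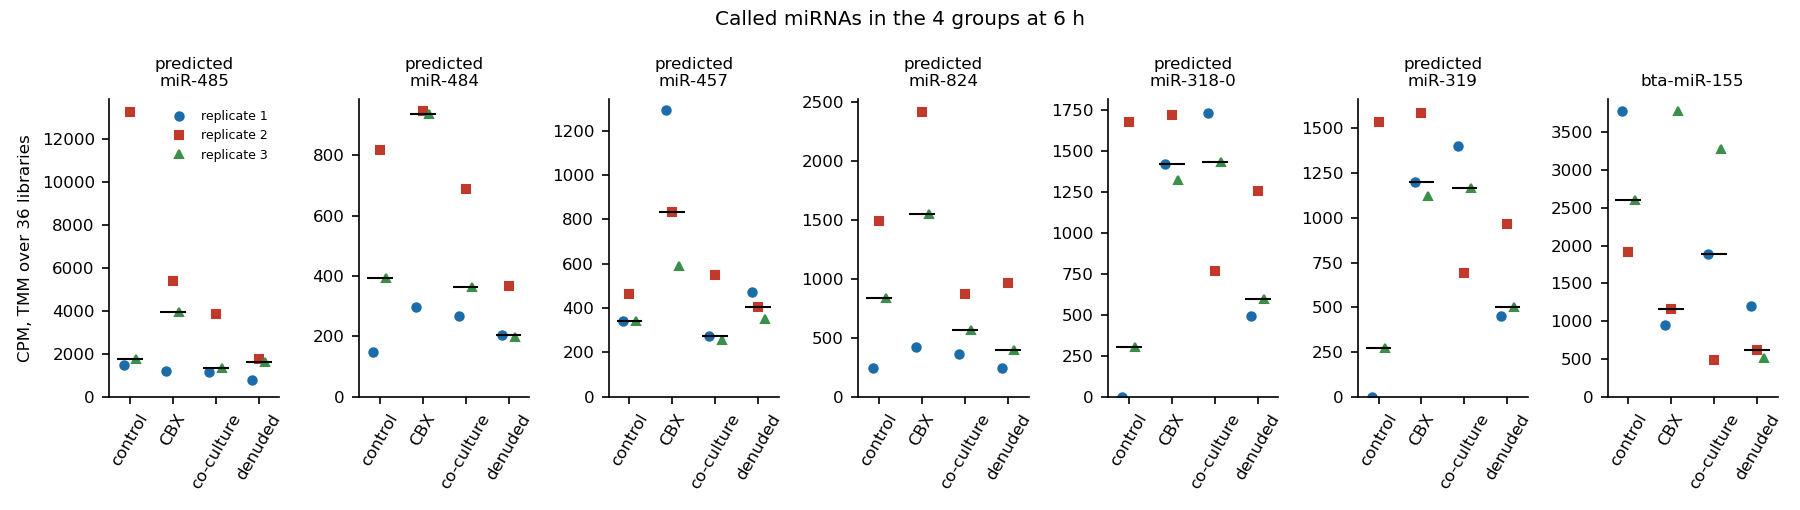
CPM of the 7 called miRNAs in the 12 libraries at 6 h, by group, on the scale of the 36 cultured libraries. Points are libraries, with the replicate number by shape and colour, and bars are group medians. Predicted miR-457 is higher in the 3 CBX libraries than in any other library, and predicted miR-485 is highest in control replicate 2.

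Predicted miR-457 was highest in CBX among these groups. It was picked for a difference that rests on the same CBX libraries, so their excess over the other groups is not independent evidence. It stood at 1291, 831 and 589 CPM in CBX, at 343, 462 and 342 CPM in control, at 275, 548 and 255 CPM in co-culture and at 474, 407 and 352 CPM in denuded oocytes. The denuded libraries lay in the range of control and co-culture, and the 3 CBX libraries above all 9 others. In the fit on 12 libraries its log2 fold change was 1.39 for CBX over co-culture, 1.02 for CBX over control and −0.16 for denuded over control, with edgeR adjusted p-values of 0.379, 0.665 and 0.921 by their rank among 381 miRNAs tested in each.
Predicted miR-485 was different. Control replicate 2 held 13268 CPM, above any CBX library, and control replicates 1 and 3 held 1470 and 1776 CPM. Replicate 2 was the highest library of its group in control, CBX, co-culture and denuded oocytes alike, and the same held for predicted miR-484 and predicted miR-824. It also held for predicted miR-746, which was not called, and for predicted miR-672, whose log2 fold change for denuded over CBX was positive. How many other miRNAs had this order was not counted.

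Predicted miR-318-0 stood at 0, 1680 and 307 CPM in control and at 1734, 771 and 1437 CPM in co-culture oocytes. The control libraries thus spanned more than the CBX and denuded libraries together, with the 0 CPM in the shallow replicate 1. For bta-miR-155 the control libraries held 3774, 1910 and 2596 CPM and the co-culture libraries 1882, 487 and 3275 CPM, against 1195, 620 and 520 CPM in denuded oocytes on this scale. The log2 fold change of bta-miR-155 for denuded over control was −2.07 (edgeR adjusted p = 0.340), larger in size than its −1.25 for denuded over CBX in the same fit.

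The same comparison at 1 h and 22 h of maturation came from 12 further libraries. In a fit on all 18, the difference between the effect at 6 h and that at 1 h was called for 0 of 458 miRNAs (0%), with 10 at an unadjusted p below 0.05. The smallest p was that of predicted miR-457, whose log2 fold change was −0.01 at 1 h, −1.15 at 6 h and −1.18 at 22 h. The difference between 6 h and 1 h was −1.14 (SE 0.38; edgeR adjusted p = 1.00). The level of predicted miR-457 at 1 h lay between 541 and 985 CPM in the libraries of all 4 groups. At 22 h its level was 1245, 1404 and 767 CPM in CBX and 556, 477 and 426 CPM in denuded oocytes, and CBX again lay above every library of the other groups.

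**Figure D5:**
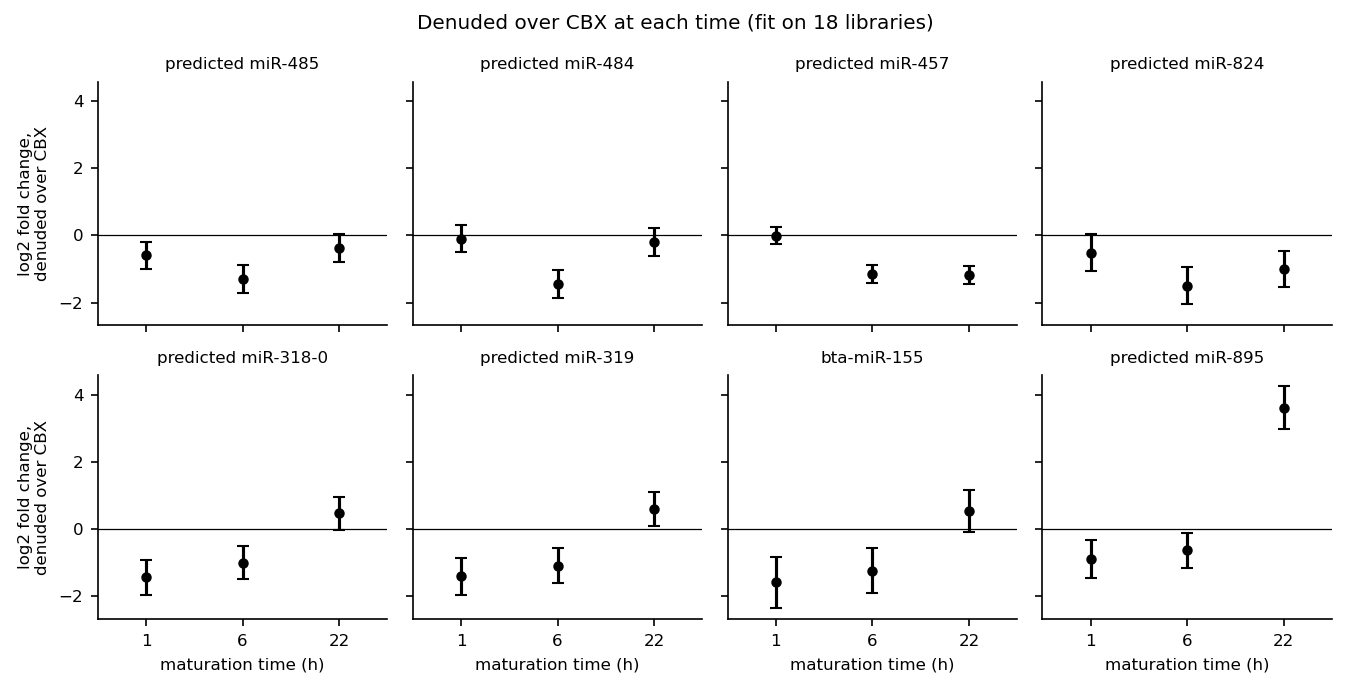
Log2 fold change of denuded over CBX oocytes by maturation time, at 1 h, 6 h and 22 h, from a fit on 18 libraries, for the 7 miRNAs called at 6 h and predicted miR-895. Bars are 1 SE, and the time axis is not to scale. Predicted miR-895 stands at 3.61 at 22 h, and all 8 lie below 0 at 6 h.

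The other called miRNAs had their own courses, and none of their differences between times passed the test after adjustment. Predicted miR-484 had log2 fold changes of −0.09 at 1 h, −1.44 at 6 h and −0.19 at 22 h, and predicted miR-485 of −0.60, −1.30 and −0.38. Predicted miR-824 stayed below zero, at −0.52, −1.50 and −0.99. Predicted miR-318-0 went from −1.44 at 1 h through −1.01 at 6 h to 0.47 at 22 h, and predicted miR-319 took the same course with −1.40, −1.09 and 0.59. For bta-miR-155 the values were −1.59, −1.23 and 0.54. Predicted miR-746, which was not called, stood at −1.0, −1.13 and −1.37. In this fit 0 of these miRNAs were called at 6 h. The difference between 6 h and 22 h was called for 1 of 458 miRNAs (0.218%), predicted miR-895. It was not called at 6 h and had very few counts in CBX at 22 h.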

How the data were processed

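Small RNA of oocyte pools was sequenced in 39 libraries with unique molecular identifiers. The authors mapped the reads with miRPro to ARS-UCD1.2 and miRBase, after FastQC 0.11.9 and UMI-tools 1.1.2 per the labels, and deposited raw counts of known and predicted mature miRNAs. The columns matched the descriptions of the samples, and 0 were left unused. Members and lists were chosen with earlier results of these data known.

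Rows of predicted miRNAs with equal counts in all libraries were counted once. Counts of the 6 libraries were filtered with filterByExpr (minimum count 10), scaled with TMM and tested with edgeR 4.0.16 in R 4.3.3 (quasi-likelihood, edgeR 3 defaults, replicate number as block). A miRNA was called at an adjusted p below 0.05 and a log2 fold change of 1 or more in size. SE is the absolute log2 fold change over the root of F, and 95% intervals are normal. The study's methods have the ovary pool as a batch, and the numbers were taken to mark it. Deviations from group means correlated at 0.613, 0.511 and 0.103 within numbers and at −0.584 to 0.0864 across them. Such deviations cancel within a group, so positive values within numbers push those across them down. The value of replicate 3 was close to the highest across numbers. The part of depth, highest in replicate 1 of both groups, was not tested. Named were all called miRNAs, the 5 next in each direction, the 10 known and 5 predicted most abundant, 2 members per list, those the study names for this contrast with bta-miR-21-5p, and interaction calls. Of the abundant ones the text gives examples. Alternatives were other scalings, filters, tools and sample sets, with DESeq2 1.42.0 among them. Sequences of predicted miRNAs came from the study's supplement. Since replicates are pools of oocytes, p-values refer to these pools and not to animals. In the main fit they rest on the spread left after the replicate block, shared across miRNAs. The spread of a single miRNA had no weight of its own there. Scripts were tested on simulated data.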

Additional observations from a re-analysis of the deposited data

Results flagged for a closer look

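The effect of denuded over CBX at 6 h differed from that at 22 h for 1 of 458 miRNAs tested (0.218%), predicted miR-895, by the interaction term of the fit on 18 libraries. The difference in log2 fold change was −4.25 (SE 0.83; edgeR adjusted p = 0.0465). Its sequence, with the seed in capitals, is given here because it consists of G and C alone, like that of predicted miR-318-0.
predicted miR-895: gCGCCCCCggggccgcgg
At 6 h predicted miR-895 stood at 89.6, 389 and 399 CPM in CBX and at 77.5, 193 and 263 CPM in denuded oocytes, lower in every pair but not called (log2 fold change −0.61; edgeR adjusted p = 0.855). At 22 h, on the scale of the 36 cultured libraries, it stood at 25.2, 52.0 and 79.3 CPM in CBX and at 294, 993 and 908 CPM in denuded oocytes, with a log2 fold change of 3.61. The 22 h groups did not overlap, and the CBX libraries were the low ones. In CBX replicates 1 and 2 at 22 h, 3 counts corresponded to 36.5 and 175 CPM. The values of predicted miR-895 there lay below that, so its 22 h fold change and the difference rest on very few counts in CBX. The call was lost without the replicate block (adjusted p = 0.155), with relative log expression size factors (0.0672), without replicate 2 (0.614) and without replicate 3 (0.526).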

How the results depend on the processing

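The count of 7 calls at 6 h changed with the fit. Without the replicate block it was 0 (8 miRNAs at an unadjusted p below 0.05), with deduplicated reads as library totals 0 (19; this scale moved the median log2 fold change to 0.15), without a filter on low counts 0 of 1055 (32), at a minimum count of 30 0 of 211 (12; smallest adjusted p = 0.0704), with 12 libraries 0 (12), and with DESeq2 2, predicted miR-485 and predicted miR-824. With relative log expression size factors it was 7, with library totals or the robust option 6, with known and predicted miRNAs tested separately 7, of which 6 were among the main 7 (bta-miR-155 was lost in these 3 fits, and predicted miR-746 gained in the separate one), and with all deposited rows 10, which include predicted miR-484 as 3 rows. Leaving out 1 replicate gave 5 to 6 calls, of which 4, 4 and 1 were among the 7. Without replicate 3, 3 of 5 calls were higher in denuded oocytes (predicted miR-432, miR-672 and miR-8). The 7 were lower in denuded oocytes in each of the 14 alternative fits that tested them (log2 fold change −2.02 to −0.22). The cause of the lost calls was not tested. Of 41 named miRNAs not called, 16 changed sign in at least 1 alternative, each with an absolute log2 fold change of at most 0.56, and 6 were called in at least 1.

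The interaction with 22 h gave 1 call, 0 without the replicate block, 0 with relative log expression size factors, 3 without a filter, and 0 to 1 with 1 replicate left out. The interaction with 1 h gave 0 in each alternative run. The share on predicted miRNAs differed by 0.286 to 3.75 percentage points with 1 replicate left out. At 6 h, miRNAs under about 58.3 CPM rest on 3 counts or fewer in the shallowest of the 6 libraries. Among the 18 libraries of the interactions, 3 counts corresponded to 175 CPM in CBX replicate 2 at 22 h. In denuded replicate 2 at 1 h they corresponded to 100 CPM.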

Other observations

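Predicted miR-408 held 28, 15 and 0 counts in CBX replicates 1 to 3 at 6 h and 0 counts in each denuded library. It had too few counts for the test with all 6 libraries. Without replicate 3 it passed the filter through the CBX libraries alone, so its call in that fit is not read as a result.

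Predicted miR-559, which shares 17 bases with predicted miR-318-0, was not called at 6 h. It stood at 3673, 676 and 5924 CPM in CBX and at 15144, 12158 and 19777 CPM in denuded oocytes at 22 h, on the scale of the 36 cultured libraries. The denuded libraries were all above the CBX libraries at that time. The difference between its effects at 6 h and 22 h was −2.71 on the log2 scale (edgeR adjusted p = 0.448).

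The level of bta-miR-155 over the 4 groups was higher at later times, as a description without a test. It was 67.5 to 1381 CPM in the 12 libraries at 1 h, 487 to 3774 CPM at 6 h and 1733 to 14190 CPM at 22 h.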
